A study of Mus musculus with 2 samples.

Results

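The Rab GTPases measured on 2 mouse arrays of sorted Langerhans cells are described here, as 59 genes of 19937 with a probe set annotated to a single symbol. A gene was a member if its platform symbol was Rab followed by a number and at most a letter and a digit, which leaves out Rab-binding proteins such as the Rab11fip genes. Both arrays come from mice aged 8 to 12 weeks that received ultraviolet light for 30 min, and the Langerin-positive, Epcam-positive cells were collected 21 days later. The first group, Il34+/LacZ, carries 1 LacZ allele of Il34, and the second, Il34LacZ/LacZ, carries that allele on both chromosomes, so the controls also hold a disrupted copy. The labels give no strain, sex, number of animals or pooling, and the deletion affects every tissue of the animal, because it is a germline allele and not one driven by a Cre. Each group is 1 array, so no difference below has a replicate error or a test.

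Rab proteins are small GTPases that mark the membranes of a cell. Bound to GTP they recruit effectors that move, tether and fuse vesicles, and bound to GDP they are extracted to the cytosol by GDP dissociation inhibitors. Exchange factors switch them on and GTPase activating proteins switch them off. In Langerhans cells the Birbeck granule, an organelle built by Langerin, belongs to the endosomal recycling system, and Langerin itself recycles through endosomes marked by Rab11a.

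Taken as a family, the Rab genes were shifted between the genotypes like genes of similar level, while single members lay apart in both directions. Levels are deposited intensities on a linear scale, and differences are log2(intensity + 16) in Il34LacZ/LacZ minus Il34+/LacZ. The floor was the median of all probe sets on both arrays, an intensity of 48.7. Of the 59 members, 44 had a mean log2 level at or above it and 15 did not. Among those 44, 18 had a reading in Il34LacZ/LacZ that was at least 1.5-fold lower, where 32.1% of the 11475 genes that passed this floor did. The members' share was 40.9%, and among the 5077 genes between the lower and upper quartile of the members' levels it was 41.4%. At least 1.5-fold higher were 4 members (9.09%), against 13.1% of all genes and 8.23% of those 5077 genes. The median difference of the 44 members was -0.40, compared with -0.24 over all genes that passed and -0.45 over those 5077 genes.

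The difference between the arrays depended on the level of a gene. A smooth curve of the difference on the level stood at 0.21 for an intensity of 64 and at -0.62 for 512. Each member is therefore also given after subtraction of that curve, which sets it against genes of its own level and is called the difference with the trend removed. On this measure the median of the 44 members was -0.16, and that of all genes -0.01. At least 1.5-fold lower were 10 of the 44 members, where 18.7% of all genes were, and at least 1.5-fold higher were 7, where 14.6% of all genes were. By both measures together 10 members were lower and 2 were higher, against 16.9% and 8.72% of all genes, and 17 members were within 1.5-fold by both. Rab5b was among the 10 by its brighter probe set and not by its dimmer probe set. For members with 1 probe set, probe set numbers run by chromosome. That of the brighter Rab5b set falls between members of chromosomes 2 and 3, though Rab5b lies on chromosome 10. Where its probes match was not checked. When the pseudocount was 64, 6 of the 12 members apart by both measures came in under 1.5-fold by a measure. These were Rab33b (0.58), Rab28 (-0.49) and Rab39b (-0.43) as deposited, and Rab6b (-0.46), Rab5a (-0.56), Rab8a (-0.56) and Rab39b (-0.58) with the trend removed. The split of higher and lower members depended on the scaling of the arrays. It was 4 higher and 18 lower as deposited. With each array centred on its 75th percentile it was 11 and 12, where 24.4% of all genes were higher and 19.9% lower. After quantile normalization it was 9 and 11, where 17.3% and 19.4% were. These scalings moved the median of all genes by 0.26 and 0.24, and centring on the array median moved it by -0.15 and gave 2 higher and 20 lower, where 7.7% and 39.9% of all genes were.

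The single error that the data hold is the disagreement between probe sets of the same gene. It was 0.63 on the log2 scale, or 1.55-fold (SD, from 552 genes with at least 2 probe sets at or above the floor). It was taken from the differences as deposited, so it also holds the trend with level between brighter and dimmer probe sets. Besides that it covers probe noise and transcript isoforms, not animals or sorts. With the trend removed, 17 of the 44 members (38.6%) differed by more than this SD, and so did 29.7% of all genes that passed the floor. Each of the 44 members was also placed among the 500 genes nearest to it in level. On this scale 6 members lay in the lowest 10% and 5 at or above the 90% point, and 23 of 44 lay in the lower 50%.

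**Figure D1:**
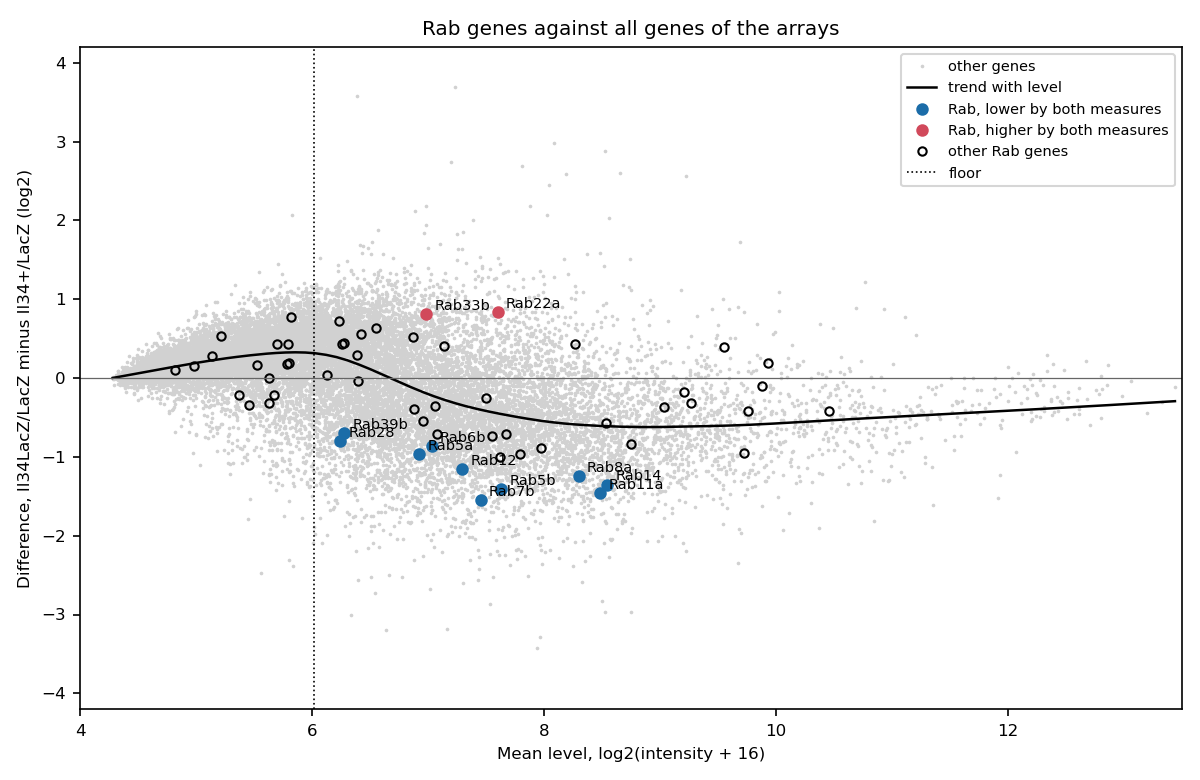
Difference between the arrays (vertical axis, log2, Il34LacZ/LacZ minus Il34+/LacZ) against the mean log2(intensity + 16) of the arrays (horizontal axis) for 19937 genes, with the smooth trend as a line and the floor as a dotted line. The 10 Rab genes at least 1.5-fold lower by both measures (blue) lie below the trend from just above the floor to the middle of the range, Rab33b and Rab22a (red) lie above it, and the other Rab genes (open circles) scatter around it.

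Markers of several cell types were read beside those of Langerhans cells. All 13 Langerhans cell markers were at or above the floor, with summed intensities of 48889.4 in Il34+/LacZ and 39492.8 in Il34LacZ/LacZ. Of these 13, 6 were at least 1.5-fold lower as deposited and none higher, and with the trend removed none was lower and 1 higher. Of all genes, 32.1% were lower and 13.1% higher as deposited, and 18.7% and 14.6% with the trend removed. Keratinocyte markers summed to 6067.8 and 1674.0, with 12 of the 17 at or above the floor at least 1.5-fold lower and none higher, and 6 of all 24, among them Ivl and Lor, below the floor on both arrays. Macrophage and monocyte markers summed to 2659.9 and 3757.2, with Mertk, Cd163 and Fcgr4 below the floor on both arrays. Of the 11 that passed, 4 were higher and 2 lower as deposited, and 5 were higher and none lower with the trend removed. Pf4, which is in this sum, read 148.1 and 975.3 and is also a platelet marker. Platelet markers, Pf4 included, summed to 346.0 and 1249.8 (2 of 3 higher as deposited, 1 with the trend removed). Neutrophil markers summed to 393.1 and 1604.7 (3 of 4 higher by each measure), with Ltf, Retnlg, Cxcr2 and Mmp8 below the floor. All 6 T cell markers on the array were at or above the floor, with sums of 7194.3 and 6608.6. Of these, 1 was at least 1.5-fold higher as deposited, Cd5 (139.9 and 383.4), and none lower. All 6 were above 0 with the trend removed (median 0.42), 2 of them at least 1.5-fold higher. The part of these markers in the Rab differences was not tested, and in such bulk material fewer cells of a type and less RNA per cell cannot be told apart.

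Promoter sequences are shown for 4 members that were apart by both measures, 2 from each direction. Rab5b was so by its brighter probe set, whose number falls away from chromosome 10, and not by its dimmer probe set. Promoters are where members that differ together could share letters. The sequences are the 250 bases before the annotated start in RefSeq on GRCm38.p6, printed 5′ to 3′ along the gene. Rab11a lies on the minus strand at chr9:64737757-64738006, Rab5b on the minus strand at chr10:128696269-128696518, Rab22a on the plus strand at chr2:173659595-173659844 and Rab33b on the plus strand at chr3:51483716-51483965. Capitals mark the letters of the GC box GGGCGG and the CCAAT box CCAAT, on either strand and with overlapping matches counted.
Rab11a: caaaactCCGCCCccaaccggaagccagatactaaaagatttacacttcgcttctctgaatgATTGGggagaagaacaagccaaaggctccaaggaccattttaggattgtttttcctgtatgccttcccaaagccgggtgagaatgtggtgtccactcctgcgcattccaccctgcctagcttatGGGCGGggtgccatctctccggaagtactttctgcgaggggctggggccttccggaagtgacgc
Rab5b: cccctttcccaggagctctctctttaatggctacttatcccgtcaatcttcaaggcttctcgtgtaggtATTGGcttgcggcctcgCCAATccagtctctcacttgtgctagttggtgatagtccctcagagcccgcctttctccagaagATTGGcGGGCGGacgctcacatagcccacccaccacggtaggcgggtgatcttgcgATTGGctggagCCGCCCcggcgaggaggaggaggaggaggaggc
Rab22a: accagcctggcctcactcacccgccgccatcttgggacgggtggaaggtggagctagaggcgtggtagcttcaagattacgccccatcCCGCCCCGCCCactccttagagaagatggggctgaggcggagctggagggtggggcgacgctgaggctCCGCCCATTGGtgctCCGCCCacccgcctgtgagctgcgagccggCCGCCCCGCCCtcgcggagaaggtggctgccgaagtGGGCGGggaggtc
Rab33b: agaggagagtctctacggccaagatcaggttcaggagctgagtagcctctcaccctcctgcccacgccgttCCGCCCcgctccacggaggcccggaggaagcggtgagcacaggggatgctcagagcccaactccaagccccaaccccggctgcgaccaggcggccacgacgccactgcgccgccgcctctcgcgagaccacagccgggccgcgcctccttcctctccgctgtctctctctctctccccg

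The GC box occurred 2 times in the Rab11a window, 2 times in Rab5b, 7 times in Rab22a and 1 time in Rab33b, and the CCAAT box 1, 4, 1 and 0 times. Of 59 members, 48 had a promoter in the table. Among those, 33 (68.8%) held a GC box, against 32.9% of 27025 genes, and 22 (45.8%) held a CCAAT box, against 34.5%. Rab promoters were richer in G and C, with a median of 60.6% against 52.0%, and the part of this in the GC box count was not tested. A GC box stood in 7 of the 9 lower members with a promoter and in both higher ones. With 2 higher members and a GC box in 68.8% of Rab promoters, these counts cannot tell whether its presence separates the directions. The TATA box TATAAA was found in 4 of the 48 (8.33%, against 13.0% of all genes), and CACGTG, the E-box letters, in 4 (8.33%, against 6.05%). These matches describe letters in this window and not binding.

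GTPases of recycling and surface transport lay on both sides of genes of their level. Of the 14 GTPases placed there, 12 were at or above the floor. As deposited, 5 (41.7%) were lower by 1.5-fold or more and 1 (8.33%) was higher. Of all genes 32.1% and 13.1% were, and of the 5077 genes of similar level 41.4% and 8.23%. With the trend removed these counts were 4 and 3, and the median was -0.11. Rab11a, the GTPase of the slow recycling endosome, read 576.2 in Il34+/LacZ but 199.7 in Il34LacZ/LacZ. It was 2.75-fold lower (-1.46, and -0.85 with the trend removed), and 8.40% of the 500 genes nearest in level lay below it. Its close relative Rab11b read 960.0 and 893.7, a difference of -0.10 as deposited and 0.48 with the trend removed. A second, dimmer Rab11b probe set read 75.5 and 110.2. Thus the lower reading of Rab11a was not shared by either probe set annotated to Rab11b. The number of the brighter set falls next to that of Rab1b on chromosome 19, though Rab11b lies on chromosome 17. That of the dimmer set falls next to Rab40c on chromosome 17. Where the probes of the brighter set match was not checked.

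Rab14, which acts between the Golgi and endosomes and marks endosomes used for cross-presentation in dendritic cells, read 579.7 and 217.3, or 2.55-fold lower (-0.74 with the trend removed). Rab8a, which delivers vesicles from the Golgi and recycling endosomes to the surface, read 467.3 and 188.2, or 2.37-fold lower (-0.65). Rab12, which directs the transferrin receptor to degradation, read 218.4 and 89.0, or 2.23-fold lower (-0.81). These 3 and Rab11a made up all recycling members that were lower by both measures. Rab35, of the fast recycling route and the actin cytoskeleton, read 261.5 and 122.7, a 2.00-fold lower value whose difference with the trend removed, -0.55, was within the probe set SD.

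The relatives of Rab8a read the other way. Rab8b read 896.7 and 1022.6, a difference of 0.19 as deposited and 0.77 with the trend removed. Rab10, which carries the glucose transporter GLUT4 and, in macrophages, TLR4 to the surface, read 635.1 and 841.9 (0.40, or 1.003 with the trend removed). Of the 500 genes nearest in level, 96.0% lay below Rab10 and 92.4% below Rab8b. Both were under 1.5-fold as deposited, so each stood apart only relative to genes of its level.

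The Rab4 pair of the fast recycling route was also split. Rab4a read 81.3 and 123.6 (0.52, or 0.65 with the trend removed), whereas Rab4b read 436.6 and 288.0 (-0.57, or 0.04). The epithelial GTPases were close to the floor. Rab25, of the Rab11 subfamily, read 53.1 and 54.9 (0.04 as deposited and -0.25 with the trend removed), and Rab17 read 42.3, under the floor, and 80.3 (at least 1.49-fold higher). These are the readings on arrays whose keratinocyte markers summed to 6067.8 in Il34+/LacZ and 1674.0 in Il34LacZ/LacZ. Rab13 and Rab15 were below the floor on both arrays.

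**Figure D2:**
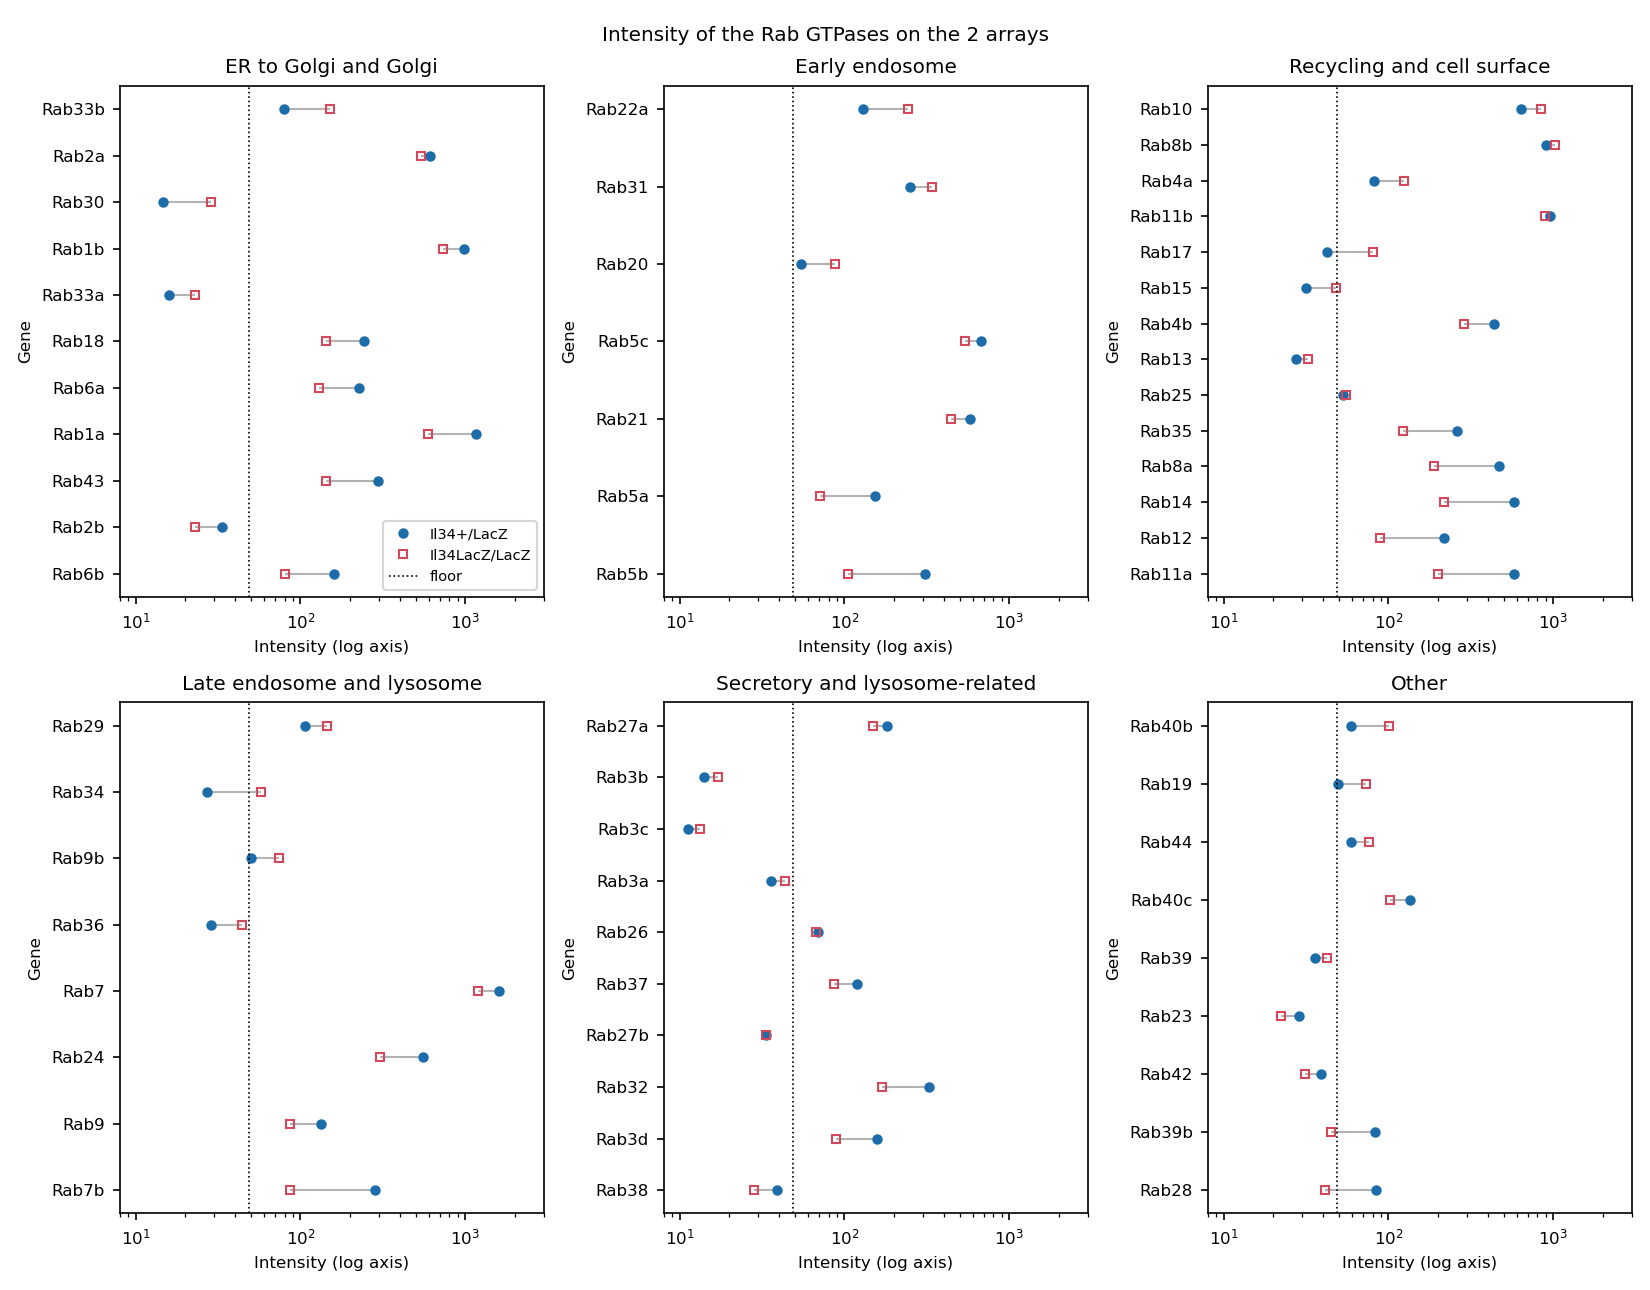
Intensity (horizontal axes, log scale) of all 59 Rab genes on the Il34+/LacZ array (filled circles) and the Il34LacZ/LacZ array (open squares), in panels by role and ordered by the difference with the trend removed, with the floor of 48.7 as a dotted line. Rab11a, Rab14, Rab8a, Rab12, Rab5b and Rab7b have the Il34LacZ/LacZ value well to the left, Rab22a and Rab33b have it to the right, and Rab11b and Rab27b have nearly or exactly coinciding symbols.

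Early endosome GTPases lay apart from each other in both directions. All 7 were at or above the floor. As deposited 2 (28.6%) were at least 1.5-fold lower and 1 (14.3%) higher, against 32.1% and 13.1% of all genes. With the trend removed there were 2 (28.6%) on each side, against 18.7% and 14.6% of all genes, and a median of 0.29. The Rab5 proteins drive fusion of early endosomes. Rab5b read 307.0 and 105.4, or 2.66-fold lower (-1.41, and -0.95 with the trend removed). Both the size of that value and its place past 1.5-fold rest on its probe set, whose number falls between members of chromosomes 2 and 3. A dimmer Rab5b probe set read 104.5 and 75.4 (-0.40, and -0.37 with the trend removed), under 1.5-fold by both measures. The number of this dimmer set falls next to that of Rab21 on chromosome 10, where Rab5b lies. Rab5a read 153.4 and 70.9, or 1.95-fold lower (-0.80 with the trend removed). Rab5c read 673.5 and 536.4, a difference of -0.32 as deposited and of 0.29 with the trend removed, so it did not share the lower readings of Rab5a and Rab5b.

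Rab22a, of the sorting and recycling endosome and known in dendritic cells for recycling of MHC class I, was the member furthest above genes of its level. It read 129.0 in Il34+/LacZ but 243.2 in Il34LacZ/LacZ, or 1.79-fold higher (0.84, and 1.29 with the trend removed), with 97.2% of the 500 nearest genes below it. Its closest relative Rab31 read 249.5 and 341.7 (0.43, and 1.02 with the trend removed). Both members of this pair therefore read higher. Rab21, which acts in integrin traffic, read 577.9 and 443.7 (-0.37, but 0.25 with the trend removed), and Rab20, a GTPase of phagosome maturation in macrophages, 54.2 and 87.7 (0.56, and 0.40).

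Of the GTPases of late endosomes, lysosomes and autophagy, Rab7b stood apart. Rab7b, which acts between late endosomes and the Golgi and is described as a restraint on Toll-like receptor signalling in myeloid cells, read 283.4 and 86.3. It was 2.93-fold lower (-1.55, and -1.15 with the trend removed), the lowest of the 44 members by both measures, and 2.60% of the 500 nearest genes lay below it. Rab7, the general GTPase of late endosomes and lysosomes, read 1608.3 and 1195.5, a difference of -0.42 as deposited and of 0.11 with the trend removed. Macrophage and monocyte markers, of a class of cells in which Rab7b is known, went both ways beside it as deposited. Their sums were 2659.9 and 3757.2, with Pf4, also a platelet marker, at 148.1 and 975.3. Adgre1 read 281.0 and 144.6 and Lyz2 958.4 and 573.3. The part of these markers in the Rab7b value was not tested.

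Other members of this group differed less. Of its 8 genes, 6 were at or above the floor, and their median was -0.48, or -0.05 with the trend removed. Rab24, linked to autophagy, read 556.2 and 305.4 (-0.83, and -0.21 with the trend removed). Rab9, which returns mannose 6-phosphate receptors to the Golgi, read 133.8 and 86.8 (-0.54, and -0.36). Rab29, of the Golgi and lysosome and a partner of the kinase LRRK2, read 106.0 and 145.2 (0.40, and 0.68), and Rab9b 50.4 and 74.4 (0.45, and 0.21). Rab34 reached the floor on the Il34LacZ/LacZ array alone (27.1 and 57.8), and Rab36 on neither.

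GTPases of the early secretory pathway mostly followed genes of their level. Of 11 genes, 8 were at or above the floor. As deposited 5 (62.5%) were at least 1.5-fold lower and 1 (12.5%) higher, against 32.1% and 13.1% of all genes. With the trend removed there was 1 (12.5%) on each side, against 18.7% and 14.6% of all genes, and the median was -0.27. Rab1a, needed for transport from the endoplasmic reticulum to the Golgi, read 1157.7 and 593.0, or 1.93-fold lower (-0.95, and -0.35 with the trend removed). Its relative Rab1b read 981.5 and 732.4 (-0.41, but 0.18 with the trend removed). Rab2a, of the same route, read 610.6 and 539.2 on its first probe set and 651.0 and 431.0 on its second (-0.17 and -0.58, but 0.44 and 0.04 with the trend removed). The number of the first set falls next to that of Rab28 on chromosome 5, though Rab2a lies on chromosome 4.

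Within the Golgi group Rab33b and Rab6b were apart by both measures, in opposite directions. Rab33b, a Golgi GTPase that binds the autophagy protein ATG16L1, read 79.4 and 150.8, or 1.75-fold higher (0.9996 with the trend removed). Rab6b, a form of the Golgi GTPase Rab6 best known in neurons, read 160.3 and 80.8, or 1.82-fold lower (-0.64). Rab6a read 225.6 and 128.7 (-0.74, and -0.31), Rab43 293.2 and 141.9 (-0.97, and -0.47), and Rab18, of lipid droplets and the endoplasmic reticulum, 244.2 and 143.5 (-0.71, and -0.24). These last 3 were at least 1.5-fold lower as deposited but within the probe set SD of genes of their level. Rab2b, Rab30 and Rab33a were below the floor on both arrays.

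Of the 10 GTPases of secretory granules and lysosome-related organelles, 5 were at or above the floor. None of those 5 was 1.5-fold apart with the trend removed, where 18.7% of all genes were lower and 14.6% higher. They had a median of -0.39, or -0.26 with the trend removed. Rab32, which with Rab38 supplies cargo to melanosomes and related organelles, read 324.3 and 168.1 (-0.89, and -0.34), and Rab38 read 39.1 and 28.2, below the floor on both arrays (-0.32, and -0.63 with the trend removed). Rab27a, which docks secretory lysosomes and exosome-bearing endosomes, read 181.0 and 149.3 (-0.25, but 0.16 with the trend removed). The deposited value of Rab27b was 33.4 on both arrays, identical in every digit, which was the case for 448 of 34760 probe sets. Rab3d, of secretory granules, read 156.7 and 89.1 (-0.72, and -0.47), Rab37 118.4 and 86.6, and Rab26 69.3 and 67.1. Rab3a, Rab3b and Rab3c were below the floor on both arrays. Of the 8 melanocyte markers Dct, Tyrp1, Tyr and Mitf were also below the floor on both arrays. The other 4 passed it, Sox10 at least 1.5-fold higher (64.4 and 134.1), and the list summed to 317.3 and 467.3. Their part in these readings was not tested.

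The remaining 9 GTPases had 6 at or above the floor. Rab28, known from cilia and photoreceptors, read 83.7 and 41.4, and Rab39b, an X-linked GTPase known from neurons, 82.5 and 44.6. Both were under the floor in Il34LacZ/LacZ, at least 1.54-fold and at least 1.52-fold lower, and their differences with the trend removed were -1.05 and -0.94. Both are dim, and each was under 1.5-fold with the arrays centred on the 75th percentile (-0.54 and -0.44). Rab40b, which belongs to the Rab proteins that join ubiquitin ligases, read 59.1 and 100.4 (0.63, and 0.55), and its relative Rab40c 134.2 and 101.9 (-0.35, and -0.12). Rab19 read 49.6 and 72.8 and Rab44 59.4 and 76.1. Rab23, Rab39 and Rab42 were below the floor on both arrays.

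**Figure D3:**
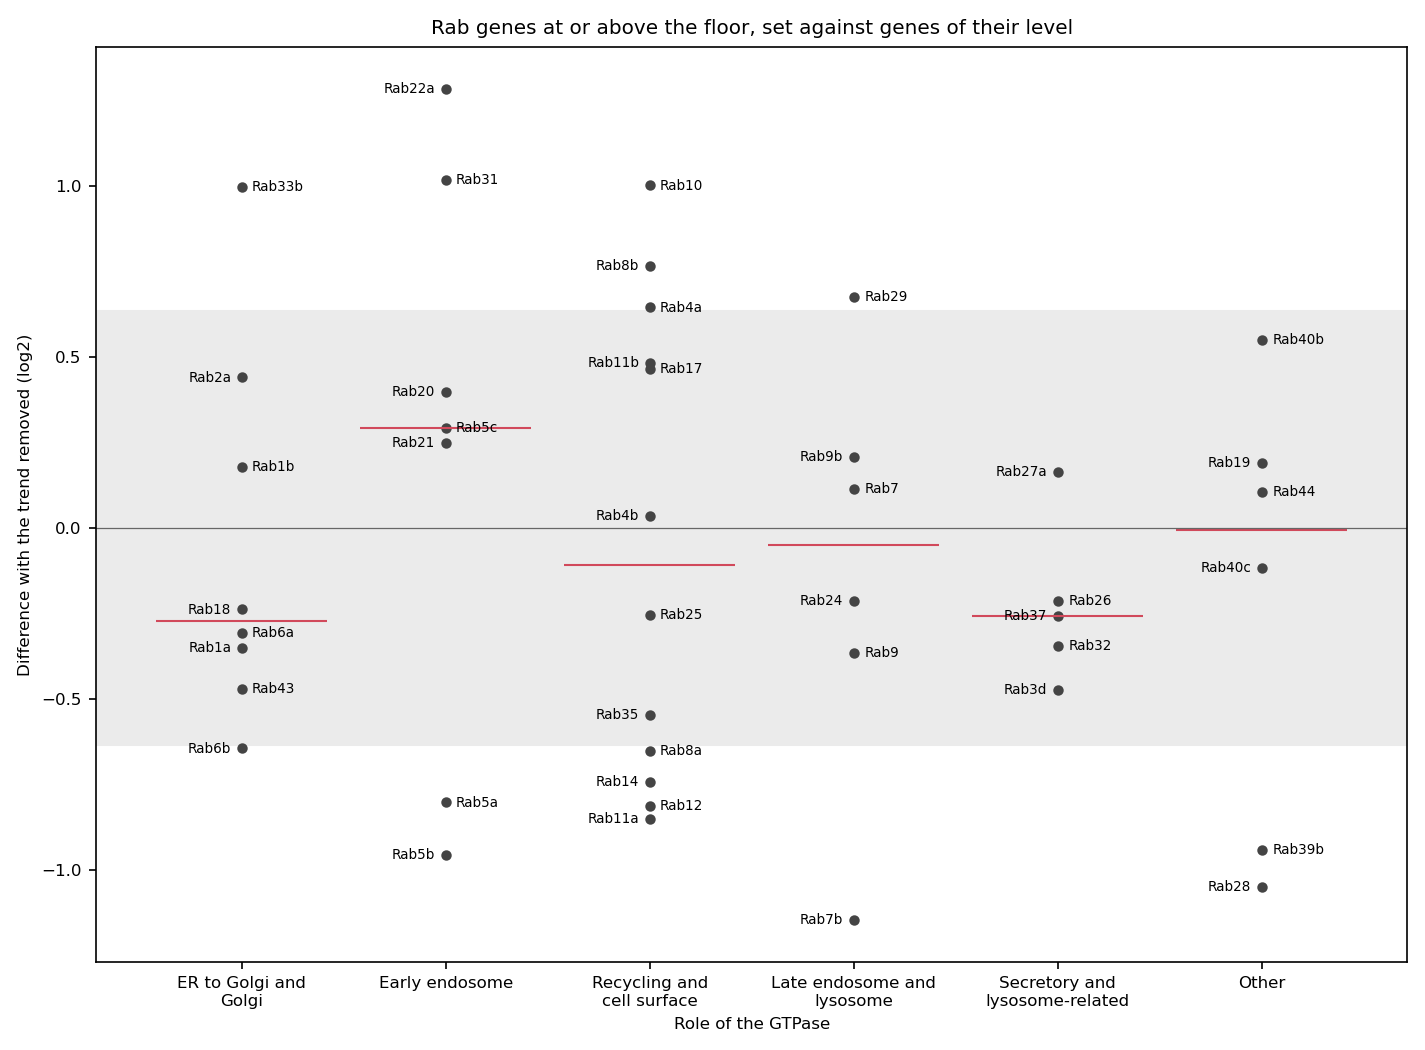
Difference with the trend removed (vertical axis, log2, Il34LacZ/LacZ minus Il34+/LacZ) of the 44 Rab genes at or above the floor, in columns by role, with the median of each role as a line and 1 probe set SD (0.63) as a grey band. Rab22a, Rab31, Rab10 and Rab33b are the highest and Rab7b, Rab28, Rab5b and Rab39b the lowest, and all 5 secretory members shown lie within the band.

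Some close relatives read apart. The relatives were paired after the values had been seen, so these gaps are a description, with no such share for other gene pairs at hand. Some genes stand in more than 1 pair. Of 14 pairs with both genes at or above the floor, 6 differed by more than 0.90 with the trend removed, and 5 did so by both measures. That value is the SD that the disagreement of probe sets as deposited gives to a gap between 2 genes. Rab8a lay 1.42 below Rab8b and 1.65 below Rab10. Rab11a lay 1.33 below Rab11b, and Rab7b 1.26 below Rab7. Rab5b lay 1.25 below Rab5c, and Rab5a 1.10 below it, but the latter gap was 0.64 as deposited. In each of these 6 the lower gene was also at least 1.5-fold lower by both measures, and its relative was not. For Rab5b the gap and the call rest on its brighter probe set, and for Rab11b the gap rests on its brighter one. The numbers of both fall among members of other chromosomes. The dimmer Rab5b probe set read -0.40, and -0.37 with the trend removed. By contrast, Rab22a and Rab31 were 0.27 apart and Rab5a and Rab5b 0.15 apart with the trend removed.

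With the trend removed, genes that switch, deliver or read Rab proteins were lower about as often as all genes, and higher less often. Of 149 such genes, 128 were at or above the floor. As deposited 48 (37.5%) were at least 1.5-fold lower and 4 (3.13%) higher, against 32.1% and 13.1% of all genes. With the trend removed 23 (18.0%) were lower and 6 (4.69%) higher, against 18.7% and 14.6%, and the median was -0.12. By list, the median with the trend removed was 0.05 for 7 genes of prenylation and membrane delivery, -0.08 for 39 exchange factors, -0.21 for 29 GTPase activating proteins, -0.12 for 43 effectors and -0.27 for 10 genes of the HOPS and CORVET tethers and their relatives. The corresponding value for the Rab genes themselves was -0.16. The differences between lists were not tested.

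The tether list had 9 of 10 genes below 0 with the trend removed, 4 of them at least 1.5-fold lower and none higher, where 50.3% of all genes were below 0 and 18.7% were at least 1.5-fold lower. HOPS and CORVET are the complexes that tether late endosomes for Rab7 and early endosomes for Rab5. Vps33b, a relative of the HOPS subunit Vps33a, read 110.4 and, below the floor, 36.5, or at least 1.95-fold lower (-1.47 with the trend removed), and its partner Vipas39 131.3 and 67.9, or 1.76-fold lower (-0.73). This pair forms a complex of its own, and without it 7 of 8 genes were below 0 and 2 at least 1.5-fold lower, with a median of -0.24. Vps39, a HOPS subunit, read 281.6 and 112.6, or 2.32-fold lower (-0.76), and Vps11, shared by the tethers, 467.9 and 181.7, or 2.45-fold lower (-0.70).

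With the trend removed, 7 of 43 effectors (16.3%) lay at least 1.5-fold below genes of their level and 2 (4.65%) above. Of all genes, 18.7% and 14.6% did. Rab11fip2, an effector of Rab11, read 82.7 and, below the floor, 34.8, or at least 1.52-fold lower (-1.24 with the trend removed). The golgin Golgb1 was at least 2.07-fold lower (118.2 and 47.7) and the phosphoinositide phosphatase Ocrl at least 1.60-fold lower (87.6 and 48.2). Appl1, an early endosome adaptor that binds Rab5, read 179.9 and 267.5, or 1.45-fold higher (1.06). The Rab5 effector Eea1, named after its values were seen, read 119.2 and 63.3, or 1.70-fold lower (-0.75). Thus Appl1 and Eea1 lay on either side of genes of their level. Rabep1 (-0.11), Rabep2 (0.34) and Rbsn (-0.38) of the same list were within the probe set SD.

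Of 29 activating proteins, 7 (24.1%) lay at least 1.5-fold below genes of their level and 2 (6.90%) above, against 18.7% and 14.6% of all genes. Tbc1d14, which binds Rab11 in the control of autophagy, read 240.1 and 62.6, or 3.26-fold lower (-1.42). Tbc1d25 was at least 1.93-fold lower (108.8 and 39.1). Tbc1d10a, which acts on Rab27a and Rab35, was 2.87-fold lower (545.8 and 179.5, and -0.92), whereas its relative Tbc1d10b was 1.40-fold higher (165.3 and 238.5, and 0.98). Exchange factors had 4 of 39 lower (10.3%) and 1 higher (2.56%), both under the shares of all genes. Dennd1b, which acts on Rab35, was at least 2.49-fold lower (145.2 and 46.6), and Trappc1, a subunit of the complex that switches on Rab1, was 2.64-fold lower (421.2 and 149.3, and -0.84). Hps4, part of the exchange factor of Rab32 and Rab38, was 2.53-fold lower (194.4 and 67.2, and -1.11), and Rab3il1 was 1.61-fold higher (75.8 and 131.7, and 0.81). Of the delivery genes Chm, a Rab escort protein that presents Rab proteins for prenylation, was 1.77-fold lower (141.1 and 72.8, and -0.69), while Rabif read 102.4 and 137.3 (0.62), Rabac1 675.1 and 643.3 (0.54) and Rabggta 104.1 and 109.0 (0.23).

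**Figure D4:**
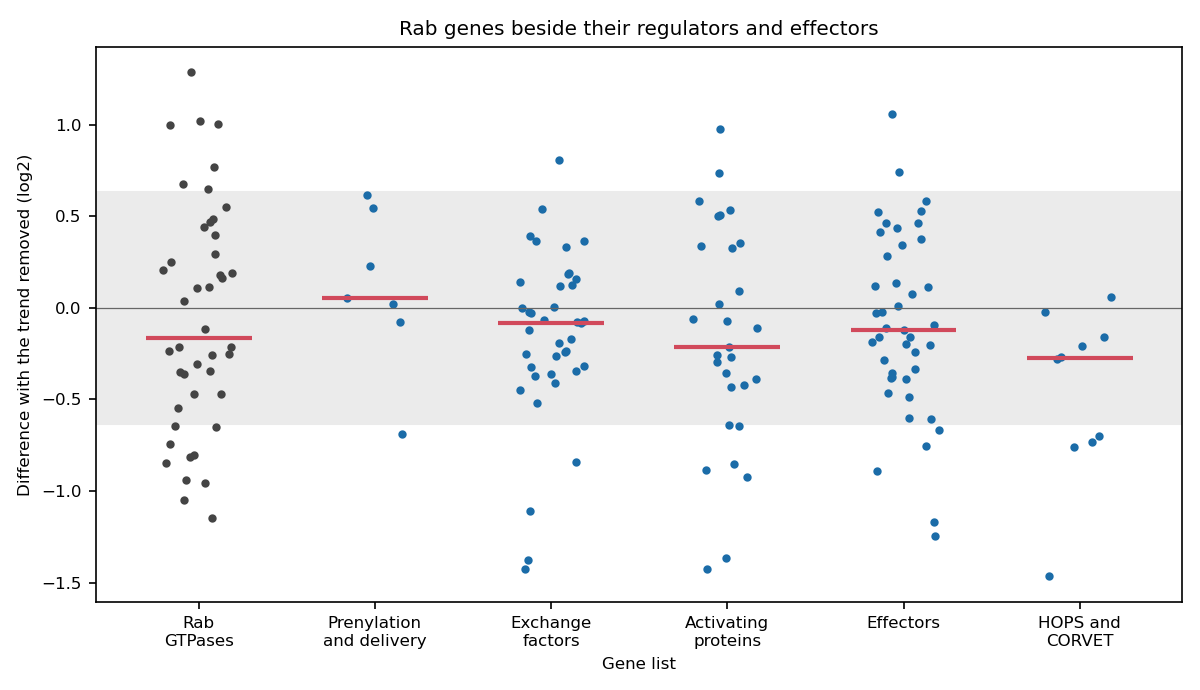
Difference with the trend removed (vertical axis, log2, Il34LacZ/LacZ minus Il34+/LacZ) of the 44 Rab genes and of 5 lists of their regulators, effectors and tethers at or above the floor, 1 point per gene, with list medians as lines and 1 probe set SD (0.63) as a grey band. List medians run from -0.27 for the tethers to 0.05 for prenylation and delivery, and single genes spread to both sides.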

How the data were processed

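Expression was measured in 2 samples, 1 per genotype, on an Affymetrix mouse gene array (the platform of the probe annotation), with cRNA made from 2 ng of total RNA per the labels' protocols. The authors deposited linear intensities, 1 for each probe set on each array, as read from the values. How they were summarized, corrected and scaled is not stated by the labels. Of 34760 probe sets, 21640 carried 1 gene symbol, 1321 several and 11799 none. The members had 62 probe sets, and all 59 gene numbers matched RefSeq (GRCm38.p6) with the same symbol. A gene was represented by its probe set of highest mean log2 level, with a pseudocount of 16. For Rab2a, Rab5b and Rab11b, the number of that probe set falls among members of another chromosome. Genes were kept on the mean, not the higher, of their levels. With the higher level, 45 members passed. A fold with 1 array below the floor was computed against the floor and is written "at least". The trend was a lowess curve (fraction 0.3) over probe sets with 1 symbol. The steps were tested on simulated data. Named partners were up to 4 per list with the largest difference with the trend removed, leaving out genes whose probe sets disagreed in sign. Members named whatever their value and all lists were chosen with earlier results of these data known. Arrays have no counting depth, and their number limits the precision. Python 3.11.15, numpy 2.4.6, pandas 2.3.3 and statsmodels 0.14.6 were used.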

Additional observations from a re-analysis of the deposited data

How the results depend on the processing

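Alternatives covered the pseudocount, the scaling, the smoothing of the trend, the floor and the choice among probe sets. No paired analysis was possible because each genotype has 1 array. The family median ran from -0.71 (floor at the 75th percentile) to -0.09 (quantile normalization) as deposited, around -0.40, and from -0.21 to -0.11 with the trend removed. Of 726 recomputed differences of single named Rab genes, 392 could not or did not change, and the other 334 moved by at most 0.53. Counts moved by more than 1.5 times in some settings. With the floor at the 75th percentile, where fewer genes are kept, 1 member was at least 1.5-fold higher as deposited, with the trend removed 6 were lower and 4 higher, and by both measures 6 were lower and 1 higher. The median of the GTPase activating proteins was then -0.85. With a pseudocount of 64, which shrinks dim genes, 1 was higher as deposited, 6 were lower with the trend removed, and 5 were lower and 1 higher by both measures. Rab33b, Rab6b, Rab5a, Rab8a, Rab28 and Rab39b were the 6 of 12 members that fell under 1.5-fold by a measure there. With a pseudocount of 1, 5 were higher by both measures, and 16.9% of all genes were higher as deposited. Centring on the array median left 2 higher as deposited, against 7.7% of all genes. Centring on the 75th percentile gave 11 higher as deposited, against 24.4% of all genes, and 6 by both measures. Quantile normalization gave 11 lower and 9 higher, against 19.4% and 17.3% of all genes, and 7 higher by both. For the alternatives, the shares of all genes with the trend removed or by both measures are not at hand. Those counts of members therefore cannot be set against them. The sign as deposited of Rab2a, Rab11b, Rab26 and Rab27a turned with the first of these scalings, and that of 8 members, among them Rab1b, Rab5c, Rab7 and Rab21, with quantile normalization. Without detection calls, signal over background cannot be given, and values near the floor are the least certain.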

Other observations

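Rab-like genes outside the family, chosen after their values were seen, also differed from each other. Rasef, a large Rab-related GTPase also called Rab45, read 109.7 in Il34+/LacZ but 252.0 in Il34LacZ/LacZ (1.09, and 1.52 with the trend removed). Rabl6 read 193.5 and 87.1 (-1.02, and -0.72 with the trend removed). The intraflagellar transport GTPases Ift22 and Ift27 read 266.4 and 265.2, and 71.5 and 49.5. Rabl3 and Rabl2 had mean levels below the floor. Rab10os, named as the opposite strand transcript of Rab10, read 90.3 and 133.2 (0.49, and 0.68 with the trend removed), the direction that Rab10 also took.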
